A study of Zea mays with 6 samples.

Results

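The genes described here package, mark and copy the DNA of maize leaf cells: histones, the enzymes that acetylate, deacetylate and methylate histones or DNA, histone chaperones and other nucleosome assembly factors, cyclins, cyclin-dependent kinases and replication proteins. They were chosen by name. A probe set entered where its single platform gene symbol, an NCBI synonym of it, or its title in the study's gene table belonged to one of these families, and 90 of 17621 probe sets did. Of these, 79 were named by symbol or synonym and stand for 56 genes, and 11 were named by title only. The titles were drawn from genes that the study had selected on these same arrays, so the titled probe sets are not an independent choice. Genes that have more than 1 probe set are counted once for each.

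In a nucleosome, DNA is wound around a core of the histones H2A, H2B, H3 and H4, and the linker histone H1 sits where the DNA enters and leaves. Chaperones carry new histones to the DNA, acetyltransferases and deacetylases set and remove marks associated with open chromatin, and SET domain proteins methylate histones. In leaves most cell division takes place near the base of young blades, where D-type cyclins bring cells from G1 into DNA synthesis and PCNA, the sliding clamp, holds the polymerase on the DNA.

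Leaves of 2 field-grown varieties were hybridised to 6 Affymetrix maize arrays, 1 for each variety and condition. DKC6575 carries the MON810 event, a CryIAb insecticidal gene under the 35S promoter of cauliflower mosaic virus, which is active in most plant tissues, and Tietar is the near-isogenic variety without it. At T1 (stage V8) and at T2 (silking, R1) control leaves came from plants irrigated at 100% of field capacity, and drought-stressed leaves at T2 came from plants that received 0% after stage V6. The irrigated and the unirrigated plants grew in separate plots, so drought and plot cannot be told apart, and near-isogenic lines can differ at loci other than the transgene. Leaf portions were sampled without the tip and the central vein, and it is not stated how the biological replicates of the field entered the arrays.

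The signals are linear intensities, scaled on every array to a mean of 500 after trimming 2% at each end, with array medians from 118 to 141. The varieties served as the replicates in a limma fit of log2 signal on variety and condition over all 6 arrays, and a change is called where its p adjusted over 17621 probe sets was below 0.05. On each array 39.6% to 41.6% of all signals fell short of 64. A probe set is called bright where its mean log2 signal was at least 6, a signal of 64. Leaf markers had summed signals from 104821 to 195285, so RNA of green leaf was present on every array.

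Most of the histone and chromatin genes were measurable in these leaves, whereas most cyclins were not. Of the 90 probe sets, 58 (64.4%) were bright, against 58.9% of all probe sets, and of the 32 dim ones 29 were under 64 on all 6 arrays. The bright probe sets were 16 of 21 for HMG proteins and assembly factors, 11 of 14 for histone deacetylases, 10 of 14 for SET domain proteins, 5 of 7 for core histones, 5 of 9 for histone H1, 3 of 4 for histone acetyltransferases, 3 of 3 for cyclin-dependent kinases, 2 of 4 for PCNA and replication proteins, 1 of 5 for cyclins and 1 of 8 for DNA methyltransferases, besides a single cyclin-like F-box title. Signals of different probe sets are not compared as transcript amounts, because probes differ in how well they bind.

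**Figure D1:**
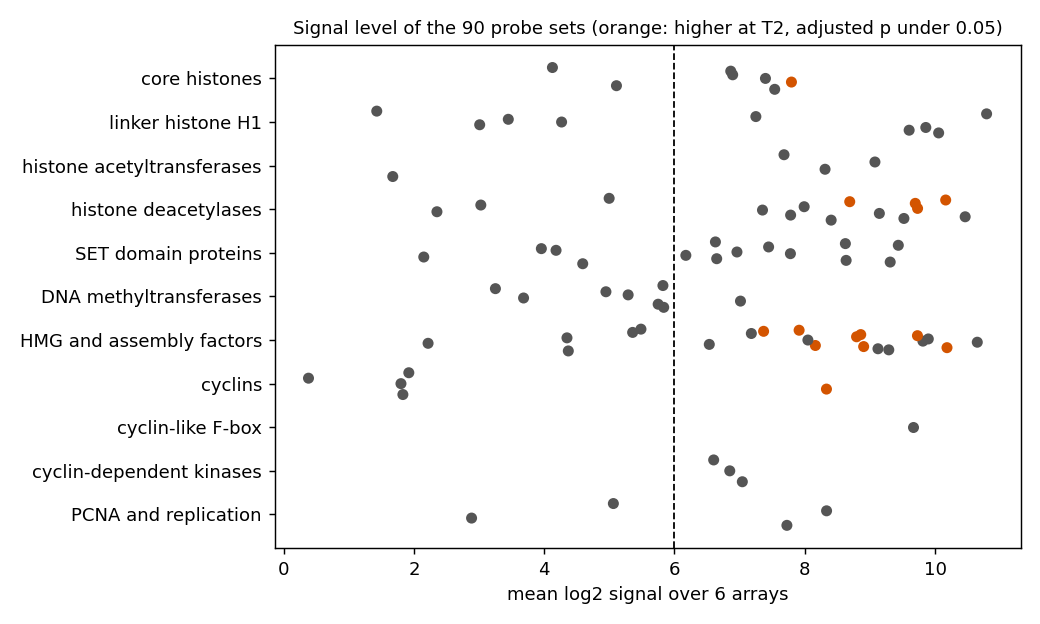
Mean log2 signal over the 6 arrays (x axis) of each of the 90 probe sets, 1 point each, by family (y axis), with the dashed line at 6. Orange points are the 14 probe sets that were higher at T2 than at T1, and all of them lie right of the line, while 4 of 5 cyclins and 7 of 8 DNA methyltransferases lie left of it.

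From T1 to T2 in the irrigated plants, 14 of the 90 probe sets rose and 0 fell (3 were lower at an unadjusted p below 0.05, limma). This is 15.6% of the members, where 6.23% of all probe sets rose and 3.37% fell. Among bright probe sets alone, 14 of 58 members rose (24.1%) against 9.38% of all. The 14 stand for 8 genes and 1 titled histone probe set: the histone deacetylases hdt102 and hdt103, the assembly factors nfa101, nfa104, nfc101, nfc102 and nfd104, the D-type cyclin cycD2 and a Histone H3.2. None of the 14 SET domain, 9 histone H1, 8 DNA methyltransferase, 4 histone acetyltransferase, 4 replication or 3 cyclin-dependent kinase probe sets was called in either direction. Changes ranged from 0.58 to 1.05 on the log2 scale. Of the 14, 7 are probe sets of the s, x or a kind, whose probes can match more than 1 transcript. Another scaling of the arrays moved all probe sets: centring each array on its median shifted the development difference by -0.13, so that 776 of all probe sets rose and 1126 fell instead of 1098 and 593. The 14 still passed there, at 0.45 to 0.92, and 2 members, mez1 and a his1 probe set, fell.

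The count of rises changed with the arrays and with the model. Without the T1 array of DKC6575, or without that of Tietar, far fewer members rose than the 14. Far fewer of all probe sets rose there too. In such a fit the lone T1 array is assumed to vary as the T2 pairs do. Without an intensity trend in the prior variance of limma, or with signals under 64 set to 64, 0 members and 0 of all 17621 probe sets passed. Pollen markers moved with development too, and 14 of 18 rose. Of the 18, 13 were under 64 on each T1 array and 1 to 3 on the T2 arrays. Their median log2 difference was 3.35 in DKC6575 and 2.08 in Tietar, mostly from dim T1 signals. Most of these markers carry a title from the gene table that the study selected on these same arrays. The count of rises among them was therefore largely set by that choice. Their summed signal was 14436 to 15378 at T1 and 15820 to 18855 at T2. Most of it at T1 came from the profilins PRO4 and PRO5. Over all arrays, T1 included, PRO4 had signals of 4664 to 6409 and PRO5 of 6168 to 7817. The sum was thus largely set by these profilins, and it cannot show how far the markers that were dim at T1 moved. Whether PRO4 and PRO5 mark pollen in these leaves was not tested. The summed signal of the 14 leaf markers was 183161 to 195285 at T1 and 104821 to 164356 at T2. Their part in the changes below was not tested. In leaf tissue as a whole, a change in the share of a cell type and a change of RNA per cell cannot be told apart.

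Among the plant-specific HD2-type deacetylases, which were first found in the maize nucleolus, hdt103 had the lowest adjusted p of all members. The signal of hdt103 (NCBI gene 542355, the brightest of its probe sets) at T1 was 727 in DKC6575 and 799 in Tietar. It was 1462 and 1513 in the T2 controls and 1272 and 1390 under drought. All 4 T2 signals lay above both T1 signals, as for 25 of the 58 bright members and 28.8% of all bright probe sets. The varieties lay close together in each condition. The rise was 0.96 ± 0.09 on the log2 scale (standard error, adjusted p = 0.002, limma). The next brightest probe set of hdt103 rose by 0.97 ± 0.11 (adjusted p = 0.004) and another by 0.73 ± 0.11 (adjusted p = 0.009). The remaining one was dim, with signals from 23.0 to 47.9, and had a difference of 0.66 (adjusted p = 0.402). The hdt103 probe sets that rose are all of the a or x kind, and the dim one is not. The signal of hdt102 (NCBI gene 542636) was 522 in DKC6575 and 667 in Tietar at T1, 967 and 1046 in the T2 controls, and 978 and 1096 under drought. It rose by 0.77 ± 0.10 (adjusted p = 0.005). Tietar was the higher variety on each of these 3 pairs, by 0.21 on average, a difference that did not pass (adjusted p = 0.793).

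The other deacetylases showed no such step. The RPD3-type enzyme hda101 (NCBI gene 541931), whose relatives remove acetyl groups in repressor complexes, had signals of 1277 and 1376 at T1, 1392 and 1579 in the T2 controls and 1475 and 1383 under drought, in DKC6575 and Tietar, and the T1 signals were the lowest by a narrow margin. Its development difference was 0.16 ± 0.10 (adjusted p = 0.395). Over the other bright deacetylase probe sets, differences ran from -0.03 to 0.21 and none passed. The SIR2-like hda113 had 0.11 and 0.06 on its bright probe sets. All 11 bright deacetylase probe sets had a median of 0.20 in each variety.

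**Figure D2:**
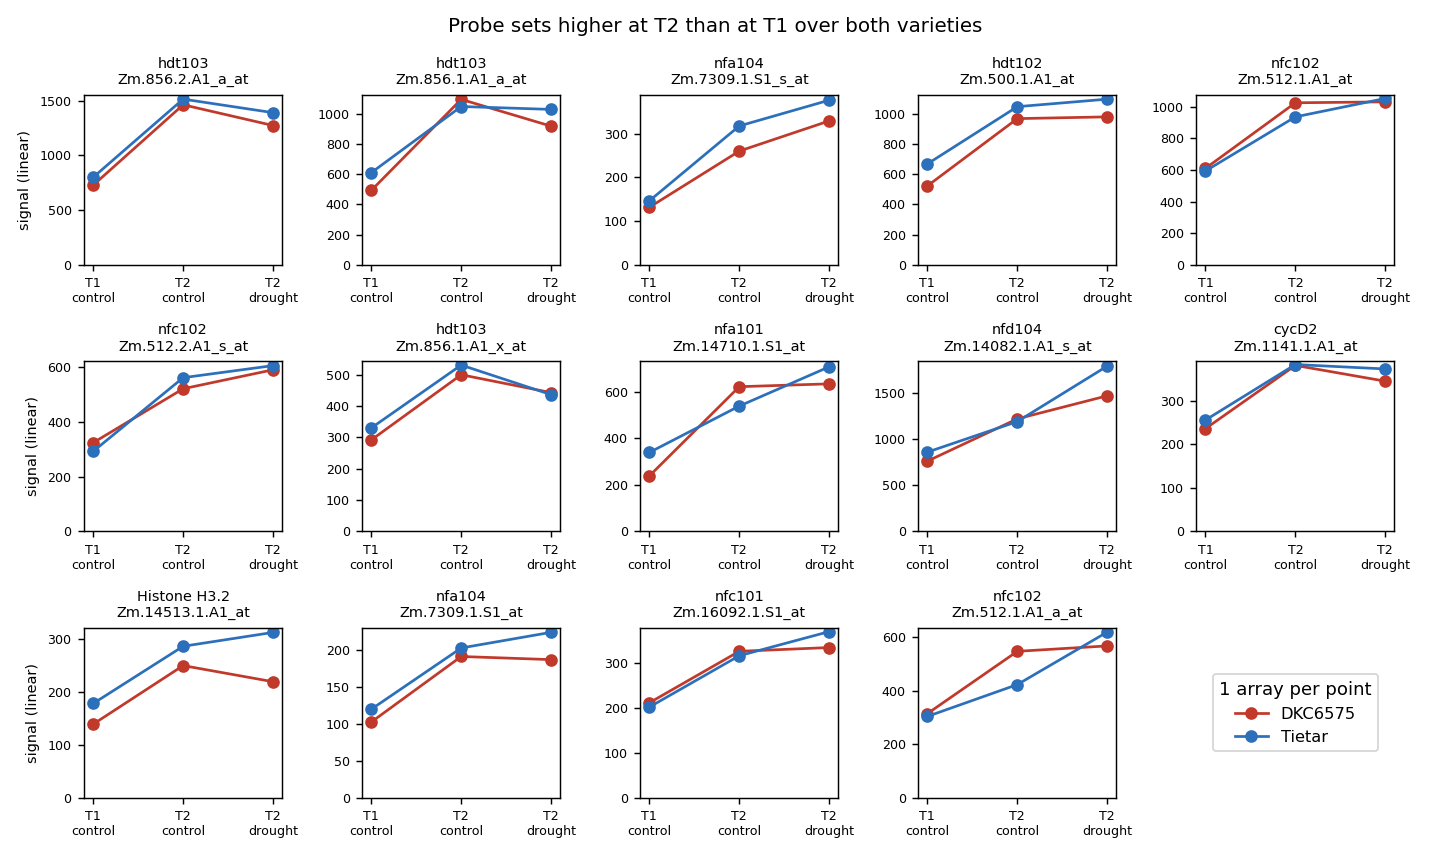
Linear signal (y axis, from 0) at T1 control, T2 control and T2 drought (x axis) of the 14 probe sets that rose from T1 to T2, in DKC6575 (red) and Tietar (blue), 1 array per point. In each panel the 4 T2 points lie above the 2 T1 points, as for hdt103 at 1272 to 1513 against 727 and 799. The 14 were selected as higher at T2, so this separation was largely set by the selection. Of all bright probe sets, 28.8% were separated in the same way.

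Several histone chaperones rose as well. Group A factors belong to the family of nucleosome assembly protein 1, which binds H2A and H2B. The signal of nfa104 (NCBI gene 542654, the brighter of its probe sets) was 131 in DKC6575 and 146 in Tietar at T1, 260 and 317 in the T2 controls, and 329 and 376 under drought. The rise was 1.05 ± 0.14 (adjusted p = 0.005, limma), and the dimmer one rose by 0.83 ± 0.16 (adjusted p = 0.020). The brighter nfa104 probe set is of the s kind, and the dimmer one is not. For nfa101 (NCBI gene 542113) the T1 signals were 238 in DKC6575 and 339 in Tietar, the T2 control signals 622 and 538, and the drought signals 634 and 707. Its rise was 1.03 ± 0.17 (adjusted p = 0.010), made up of 1.39 in DKC6575 and 0.67 in Tietar. Another member, nfa103 (NCBI gene 541933), had signals of 112 and 81.9 at T1, 150 and 155 in the T2 controls and 192 and 228 under drought, and its difference of 0.67 ± 0.21 did not pass (adjusted p = 0.100). The last, nfa102, had 0.19 (adjusted p = 0.335).

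Group C factors are WD40 proteins of the MSI1 and RbAp type, histone-binding subunits of assembly, deacetylase and Polycomb complexes. The brightest probe set of nfc102 (NCBI gene 541934) had signals of 609 in DKC6575 and 593 in Tietar at T1, 1024 and 935 in the T2 controls, and 1030 and 1052 under drought. It rose by 0.70 ± 0.10 (adjusted p = 0.006, limma). The other probe sets of nfc102 rose by 0.81 ± 0.11 and 0.64 ± 0.14 (adjusted p = 0.006 and 0.029). The signal of nfc101 (NCBI gene 542087) went from 212 and 202 at T1 to 327 and 317 in the T2 controls and 335 and 371 under drought, a rise of 0.64 ± 0.13 (adjusted p = 0.023). In contrast nfc103 (NCBI gene 542545) hardly varied, with signals from 899 to 993 on the 6 arrays and a difference of 0.01 (adjusted p = 0.982), and nfc104 was dim, at 5.19 to 33.97.

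The HMG-box proteins of group D, which bend DNA, were mixed. The brighter probe set of nfd104 (NCBI gene 541951) had signals of 759 in DKC6575 and 857 in Tietar at T1, 1217 and 1188 in the T2 controls and 1467 and 1789 under drought. It rose by 0.58 ± 0.11 from T1 to T2 (adjusted p = 0.016, limma), while the dimmer one had 0.40 ± 0.11 (adjusted p = 0.066). The brighter nfd104 probe set is of the s kind, and the dimmer one, which did not pass, is not. The brightest member of the family was nfd102 (NCBI gene 541987). Its signals were 1687 and 1770 at T1, 1658 and 1237 in the T2 controls and 1682 and 1657 under drought. Only the T2 control of Tietar lay below the rest. The nfd102 difference was -0.27 ± 0.13 (adjusted p = 0.252, limma). Without the T2 control of DKC6575, which leaves 1 array in that group, it was -0.49. The FACT subunit nfd110 (ssrp1), which loosens nucleosomes ahead of polymerases, had -0.12 (adjusted p = 0.526), and the AT-hook protein HMG I/Y-2 0.09 (adjusted p = 0.795). Over the 16 bright HMG and assembly factor probe sets the median development difference was 0.57 in DKC6575 and 0.56 in Tietar, beside 0.06 and 0.04 over all bright probe sets, and 12 and 14 of the 16 were above 0.

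**Figure D3:**
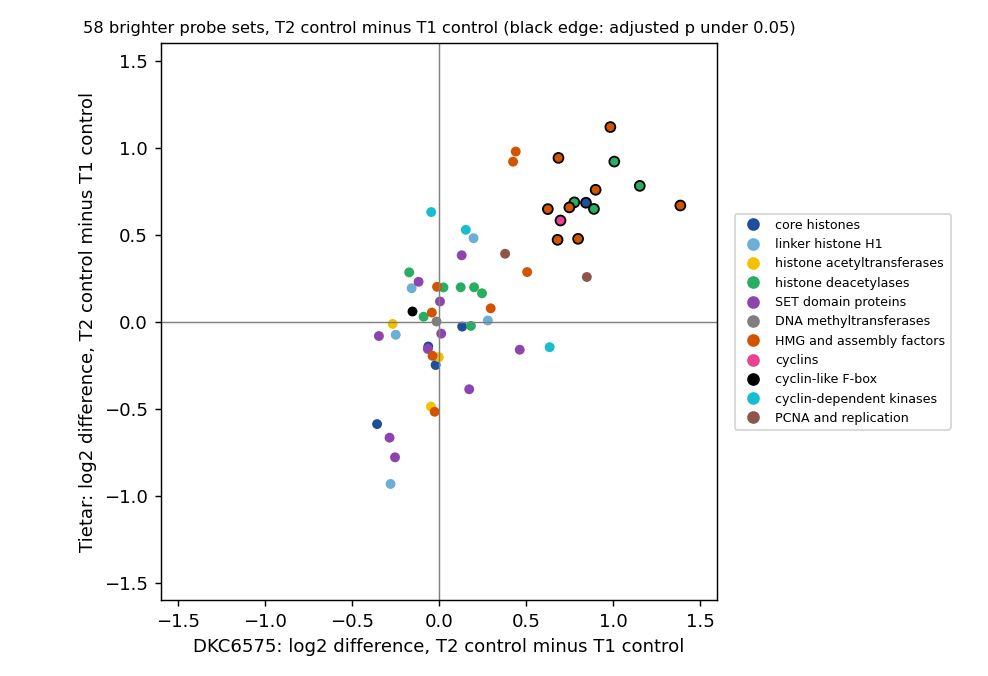
Log2 difference from T1 to T2 control in DKC6575 (x axis) and Tietar (y axis) for the 58 bright probe sets, coloured by family, with a black edge where limma called the change. The 14 called probe sets lie in the upper right, mostly orange (8 assembly factors) and green (4 deacetylases), and SET domain proteins (purple) range from -0.78 to 0.38 in Tietar.

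The D-type cyclin cycD2 (NCBI gene 541915), whose kinase complex starts the G1 to S step, was the only cyclin above the brightness limit. Its signal was 236 in DKC6575 and 255 in Tietar at T1, 381 and 383 in the T2 controls, and 344 and 373 under drought. The varieties differed little, and all T2 signals exceeded the T1 signals. It rose by 0.64 ± 0.12, or 1.56-fold (adjusted p = 0.017, limma), by 0.69 in DKC6575 and 0.58 in Tietar. The other cyclins, cyc1, cyc2, cyc3 and cycD1, had signals from 0.42 to 12.6, too low for their differences to be read. The cyclin-dependent kinase cdc2 (NCBI gene 542270), which drives entry into mitosis in yeast, had signals from 86.6 to 174 on its 2 probe sets named by symbol. Within a variety these moved apart. In DKC6575 their development differences were 0.64 and -0.04 and in Tietar -0.15 and 0.63, and over both varieties they were 0.24 and 0.29 (adjusted p = 0.589 and 0.521).

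Among replication proteins pcna1 (NCBI gene 542425) had signals of 284 in DKC6575 and 300.4 in Tietar at T1, 370 and 394 in the T2 controls, and 306 and 298 under drought. Both T2 controls lay above the other 4 arrays, yet neither its development difference of 0.39 ± 0.12 (adjusted p = 0.096, limma) nor its drought difference of -0.34 ± 0.12 (adjusted p = 0.279) passed. The GINS subunit PSF1, part of the replicative helicase, had 130 and 203 at T1 and 234 to 250 on the T2 arrays, with a difference of 0.55 ± 0.20 (adjusted p = 0.130). The second clamp gene pcna2 was dim, at 28.2 to 43.0. Outside the naming rule were 10 further probe sets for division and replication. They stand for MCM6, MCM7, the retinoblastoma-related rrb1 and rrb2, anti-silencing protein 1 and arginine methyltransferases. Of these 10, 0 rose and 0 fell, with 0 higher and 1 lower at an unadjusted p below 0.05 (limma). Only 4 of the 10 were bright, and the helicase subunits MCM6 and MCM7 did not exceed 15.4 on any array. Of 16 probe sets for origin recognition, methyl-binding and Polycomb genes, 11 were bright. Likewise 0 of the 16 rose and 0 fell, with 3 and 0 at an unadjusted p below 0.05 (limma). Over the array 6.23% of all probe sets rose and 3.37% fell. At these shares lists this short would show few calls or none.

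Core histones did not move as a group. The 3 bright probe sets titled Histone H3.2 disagreed, and since histone H3 is encoded by many near-identical genes, the title does not tell which gene each of them measures. The signal of the brightest was 139 in DKC6575 and 178 in Tietar at T1, 249 and 286 in the T2 controls, and 219 and 312 under drought, a rise of 0.76 ± 0.15 (adjusted p = 0.019, limma). The next had -0.10 ± 0.20 and the dimmest -0.47 ± 0.23 (adjusted p = 0.810 and 0.268). The centromeric histone cenH3, which marks where the kinetochore forms, had signals from 102 to 128 on its bright probe set (-0.13, adjusted p = 0.744), and Histone H4 had 0.05 (adjusted p = 0.913). The 5 bright core histone probe sets had medians of -0.02 in DKC6575 and -0.14 in Tietar.

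Linker histones were among the brightest members. The signal of hon102 (NCBI gene 541964) was 1647 in DKC6575 and 1469 in Tietar at T1, 1890 and 2049 in the T2 controls and 1824 and 1815 under drought, a difference of 0.34 ± 0.10 (adjusted p = 0.083, limma). For hon101 the range was 943 to 1171 (0.14, adjusted p = 0.457). The gene his1 (NCBI gene 542385) had 6 probe sets, and its 3 bright ones gave -0.16, 0.02 and -0.61 (adjusted p from 0.117 to 0.952). The last of these fell by 0.73 after median centring (adjusted p = 0.048, limma). Without the T2 control of DKC6575, which leaves 1 array in that group, it had -0.87 and hon102 had 0.44. The bright his1 probe sets are of the x kind, which can also bind transcripts of related genes.

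**Figure D4:**
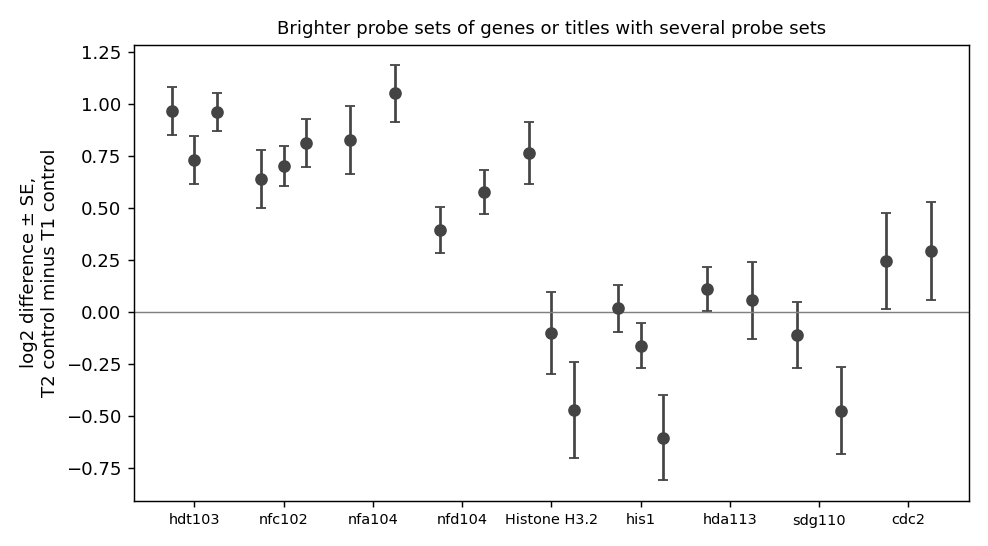
Development difference on the log2 scale (y axis, bars are the standard error of the limma fit over 6 arrays) of the bright probe sets of each gene or title with several probe sets (x axis). Those of hdt103, nfc102, nfa104 and nfd104 lie between 0.40 and 1.05, whereas those titled Histone H3.2 spread from -0.47 to 0.76.

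SET domain proteins, acetyltransferases and DNA methyltransferases were not called in either direction. The E(z)-type H3K27 methyltransferase mez1 (NCBI gene 541954) had signals of 448 in DKC6575 and 521 in Tietar at T1, 376 and 304 in the T2 controls, and 382 and 387 under drought. All T2 signals of mez1 were below its T1 signals, as for 7 of the 58 bright members and 17.6% of all bright probe sets. Its difference of -0.52 ± 0.15 did not pass (adjusted p = 0.069, limma), but it passed after median centring (-0.64, adjusted p = 0.020), cyclic loess (-0.61, adjusted p = 0.034) and quantile normalization (-0.57, adjusted p = 0.049). The paralogue mez2 (NCBI gene 542659) had 668 and 629 at T1, 754 and 481 in the T2 controls and 630 and 685 under drought, with the 2 varieties apart mainly in the T2 control. The brightest SET domain member, set105 (NCBI gene 542085), had the narrowest range of all bright members, 674 to 738. The GCN5-type acetyltransferase hag101 (NCBI gene 542030) ranged from 286 to 335 and the acetyltransferase hac108 (NCBI gene 541950) from 491 to 591. Of the DNA methyltransferases only met4 was bright, at 121 to 148 (-0.01, adjusted p = 0.992), and dmt106 came next at 35.7 to 73.5. The maintenance methyltransferase dmt101, which copies CG methylation after replication, was dim, at 41.2 to 71.0, as were the chromomethylases met2 and met5.

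Under drought at T2 no member passed: 0 rose and 0 fell, with 5 higher and 5 lower at an unadjusted p below 0.05 (limma), where 0.55% of all probe sets rose and 0.482% fell. The lowest adjusted p belonged to nfd104 (the dimmer probe set), with signals of 523 in DKC6575 and 542 in Tietar in the T2 controls and 794 and 816 under drought. The difference was 0.60 ± 0.11 (adjusted p = 0.059, limma). The brightest his1 probe set had 771 and 801 in the controls and 1072 and 1246 under drought, 0.56 ± 0.11 (adjusted p = 0.071). The titled cyclin-like F-box protein, which the naming rule takes in although F-box proteins act in protein degradation, had 907 and 882 in the controls and 707 and 593 under drought, -0.47 ± 0.10 (adjusted p = 0.098). Histone H4 had 215 and 218 against 169 and 120 (-0.60 ± 0.20, adjusted p = 0.248).

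Some of these differences grew when an array was left out. Such a fit leaves 1 array in a group, so only sizes are given. Without the T2 control of DKC6575 the nfd104 probe sets had 0.65 and 0.56 and the F-box probe set -0.57. Without the drought array of DKC6575 the brightest his1 probe set had 0.68. The actin probe sets of the array, which compare the 3′ and 5′ ends of a transcript, had a log2 ratio of 4.28 in DKC6575 and 4.25 in Tietar under drought and 4.57 to 4.67 on the other 4 arrays. Its part in the drought differences was not tested.

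Over the 14 probe sets that had risen by T2, the drought difference ran from -0.23 for an hdt103 probe set to 0.43 for the brighter nfd104 one, and the latter alone had an unadjusted p below 0.05 (adjusted p = 0.135, limma). The cycD2 difference was -0.09 ± 0.12 (adjusted p = 0.811). Compared with T1, which is shared with the development comparison, drought leaves had 17 higher members and 1 lower, where 9.95% of all probe sets rose and 6.04% fell. After median centring 14 members were higher and 6 lower, and of all probe sets 978 rose and 2085 fell instead of 1754 and 1065. Fewer members passed when a T1 array or a drought array of either variety was left out. Calls over all probe sets dropped there too, and such a fit leaves 1 array in a group. Without the intensity trend or with the floor at 64, 0 members and 0 of all probe sets passed. In the fit over all arrays the 17 were the same 14 together with nfa103 (1.13, adjusted p = 0.012), the dimmer nfd104 probe set (0.99, adjusted p = 0.002) and his1 (0.39, adjusted p = 0.047), and the lower one was the cyclin-like F-box probe set (-0.51, adjusted p = 0.014). For nfd104 the difference from T1 was 1.01 on the brighter one.

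**Figure D5:**
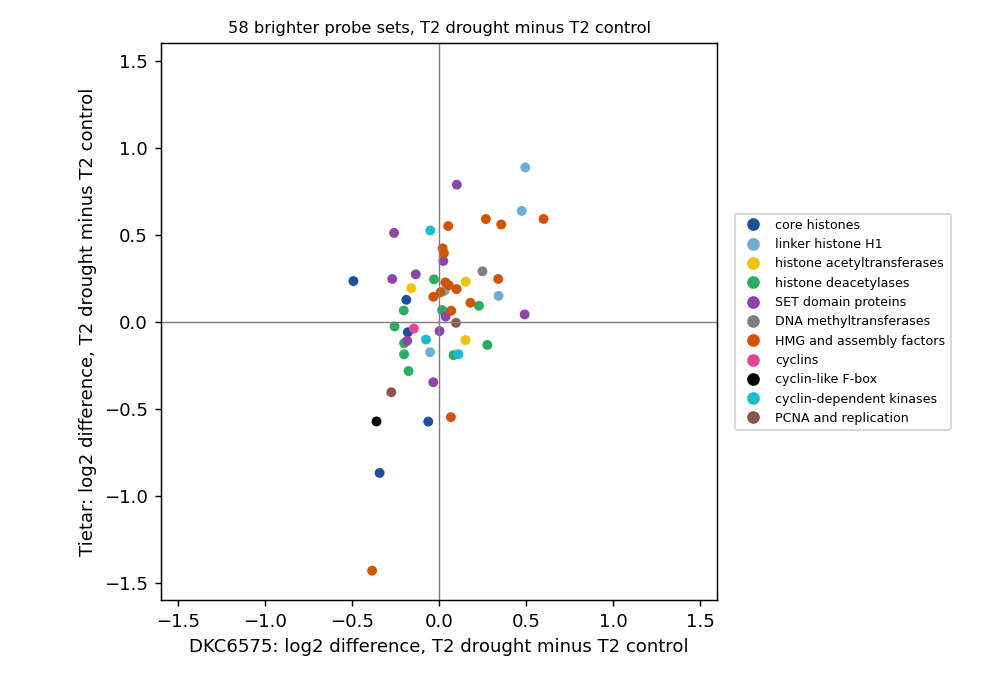
Log2 difference from T2 control to T2 drought in DKC6575 (x axis) and Tietar (y axis) for the 58 bright probe sets, coloured by family. Most points lie within 0.5 of 0 on both axes, and the lowest is an HMG-like assembly factor probe set at -0.38 in DKC6575 and -1.43 in Tietar.

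Counted at 2-fold within a variety, with no test, few bright members moved. From T1 to T2, 3 of 58 were at least 2-fold higher in DKC6575 (nfa101 and 2 probe sets of hdt103) and 1 in Tietar (nfa104), where 2.15% and 2.74% of all bright probe sets were, and 0 were lower, against 1.06% and 2.03%. Under drought 0 members were higher or lower in DKC6575, where 0.674% and 0.568% of bright probe sets were, and in Tietar 0 were higher and 1 lower, against 2.62% and 1.59%. This one was titled HMG-like nucleosome/chromatin assembly factor D, named only through the title table that the study selected on these arrays, so its size is a description. Its signals were 77.6 in DKC6575 and 87.4 in Tietar at T1, 105 and 172 in the T2 controls, and 80.7 and 63.9 under drought. The T2 control of Tietar stood above the other 5 arrays, and over both varieties the drought difference was -0.91 ± 0.29 (adjusted p = 0.236, limma).

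No member was called between the varieties. Over the 3 conditions 0 were higher and 0 lower in Tietar (5 and 1 at an unadjusted p below 0.05, smallest adjusted p = 0.728, limma), and 0.0397% and 0.0114% of all probe sets were. Within a condition no bright member differed 2-fold between the varieties, against 0.876% of bright probe sets at T1, 1.44% in the T2 control and 1.1% under drought. The widest gaps of bright members named by symbol (Tietar minus DKC6575) were 0.52 for a cdc2 probe set at T1, -0.65 for mez2 in the T2 control and 0.47 for SET102 under drought. From T1 to T2, 29 of the 58 bright members were higher in both varieties, 14 lower in both and 15 opposite, so that 74.1% had the same sign, beside 72.8% of all bright probe sets. Under drought these numbers were 26, 15 and 17, or 70.7% beside 61.9%. The drought differences of the HMG-like probe set lay -1.05 apart, and those of mez2 were -0.26 in DKC6575 and 0.51 in Tietar. With 1 array per variety and condition these gaps have no replicate and were not tested.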

How the data were processed

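Leaf RNA was hybridised to 6 Affymetrix Maize Genome arrays. The methods name Robust Multichip Average and the Partek software; the values the authors deposited are linear intensity values scaled to 1 trimmed mean per array, so their exact processing stays unknown. Signals were converted to log2, and 113 control probe sets were left out. limma 3.58.1 (R 4.3.3) was fitted to 17621 probe sets with variety and condition as factors and an intensity trend, with Benjamini-Hochberg adjustment. Drought against T1 was added after the data were seen. The number of arrays limits the precision, and the labels name no batch. The fit leaves 2 residual degrees of freedom. Its p-values and standard errors rest on how far the changes of the 2 varieties disagree. That disagreement is drawn toward the variance usual at the same signal level, so signal level largely sets them. The p-values and standard errors do not measure the spread between plants of a condition. In 17621 simulated probe sets for development, 25 of 50 rises of 0.58 on the log2 scale were called, and 35 of 50 rises and 49 of 50 falls of 1, and 6 of 17421 unchanged ones. The simulated noise was independent between arrays, and its variance followed the signal level, as the fit assumes. Only bright probe sets were changed, and far fewer than were called in the data. These rates therefore need not hold for the real arrays. Members and lists were chosen with earlier results of these data known. Named are cycD2, all members called, bright members past 2-fold and the 2 brightest of each family, besides members near the threshold or at odds with their family, which were chosen after their values were seen. Of 1452 probe sets with 1 platform symbol, 1377 matched the gene table of assembly Zm-B73-REFERENCE-NAM-5.0, used for names only. Sequences were not used here. Counts and medians were made in Python 3.11.15 (numpy 2.4.6, pandas 2.3.3) and figures in matplotlib 3.10.9.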

Additional observations from a re-analysis of the deposited data

How the results depend on the processing

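The 14 rises from T1 to T2 stayed 14 with the filter at a mean log2 of 6, cyclic loess, quantile normalization, median centring or control probe sets kept, and were 13 with members named by the platform annotation only, with the filter and no trend or without the variety term. They were 0 without an intensity trend or with a floor at a signal of 64, where no probe set of the array passed, and 9 with 1 probe set per gene. Leaving out single arrays gave 1 to 14 rises. Falls from T1 to T2 were 1 with cyclic loess or quantile normalization, 2 with median centring, and 0 to 3 when single arrays were left out. Under drought, calls stayed at 0 rises and 0 falls in every setting that kept all 6 arrays. Drought differences that grew without 1 array are given above as sizes only. No member was called between the varieties under any setting. No single probe set among the 14 changed sign under any setting.

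At 1.5-fold, 16 bright members changed from T1 to T2 in DKC6575 and 18 in Tietar, and 1 and 7 under drought. The share of all bright probe sets past 1.5-fold or 3-fold was not counted. These counts therefore cannot be set against the array as a whole. At 3-fold, 0 did in either variety from T1 to T2 and 0 under drought in Tietar. In Tietar the development count was 2 with quantile normalization and 0 against the mean of both T2 controls.

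Median development differences in DKC6575 moved under cyclic loess to 0.45 for assembly factors, 0.11 for deacetylases and -0.14 for SET domain proteins, and under quantile normalization to 0.46, 0.091 and -0.13, and to -0.16 for core histones. With 1 probe set per gene they were 0.43 for assembly factors and 0.20 for histone H1. With the mean of both T2 controls they were 0.15 for core histones and 0.026 for histone H1. In Tietar they moved to 0.64 for assembly factors with that mean, and to -0.23 for SET domain proteins with quantile normalization. Under drought the histone H1 median in DKC6575 was 0.16 with the mean of both T2 controls and 0.031 with 1 probe set per gene, and in Tietar 0.33 with that mean. Drought medians in Tietar were 0.12 (cyclic loess) and 0.14 (quantile normalization) for assembly factors, and 0.048 (quantile normalization) and 0.042 (1 probe set per gene) for SET domain proteins. The causes were not tested.

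No paired analysis was possible because the replicate number is 1 in every group, so that it pairs nothing beyond the variety term of the fit. The planned search of promoters for motifs was not run.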
